A study of Mus musculus with 7 samples.

Results

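The immunoglobulin kappa variable (Igkv) genes were examined in RNA sequencing of nonparenchymal cells of the mouse liver, a preparation meant to hold every liver cell type except hepatocytes. They were chosen by their symbol and their summed counts, as all rows of the deposited count table whose symbol starts with Igkv and whose counts summed to at least 10 over the 7 libraries, which gave 92 genes of 102 Igkv rows and of 20354 rows in all. The libraries came from 3 samples of Shp2 knockout (Shp2 KO) mice and 4 samples of wild-type (WT) mice, all of strain C57BL/6J, 2 months old and untreated. The Shp2 KO mice, Shp2f/f:Clec4f-Cre+/-, carry a floxed allele of the gene of the tyrosine phosphatase Shp2 and a Cre recombinase driven by Clec4f, a gene of Kupffer cells, which are macrophages resident in the liver. The deletion is thus directed at Kupffer cells and not at the B lineage cells that transcribe Igkv genes. The labels do not say whether the WT mice carried the floxed allele or Cre, nor that each library came from a separate mouse, so the p-values speak of the spread among the libraries only. The genotype field of the knockout libraries names Shp1, Shp2 and Shp3 in turn, and the titles, which all name Shp2, were followed.

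A kappa light chain is built from an Igkv gene joined by recombination to an Igkj joining gene and spliced to the constant gene Igkc. Each B cell normally keeps a single productive light chain, kappa or lambda, so the set of Igkv genes among the transcripts reflects the mix of B cell clones that contribute RNA. Plasma cells, the antibody-secreting descendants of B cells, hold far more immunoglobulin RNA per cell than resting B cells do. In bulk RNA, fewer such cells and less RNA per cell cannot be told apart. The first number of an Igkv symbol gives the family of similar genes, and the second gives the place in the locus, counted from the end next to the joining genes.

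The Igkv pair that took the most counts, Igkv1-110 and Igkv1-117, is shown first, because their sequences are so alike that reads can be shared between them. Below are the last 300 bases of each germline coding sequence, 5′ to 3′, from GENCODE M21 transcripts (GRCm38, chromosome 6), with the bases that differ between the pair in capitals.
Igkv1-110: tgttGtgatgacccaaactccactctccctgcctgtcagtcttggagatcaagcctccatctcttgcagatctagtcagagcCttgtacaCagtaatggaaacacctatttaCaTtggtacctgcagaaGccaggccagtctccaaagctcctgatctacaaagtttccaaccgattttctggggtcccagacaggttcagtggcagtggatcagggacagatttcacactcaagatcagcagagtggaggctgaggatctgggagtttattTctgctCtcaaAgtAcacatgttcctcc
Igkv1-117: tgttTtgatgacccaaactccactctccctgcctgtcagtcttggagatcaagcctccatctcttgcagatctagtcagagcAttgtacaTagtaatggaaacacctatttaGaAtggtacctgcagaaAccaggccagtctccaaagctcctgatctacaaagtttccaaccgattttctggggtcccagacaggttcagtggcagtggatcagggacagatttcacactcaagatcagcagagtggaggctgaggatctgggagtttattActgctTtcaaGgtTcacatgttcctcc
They differ at 10 of these 300 bases, an identity of 96.7%. A read that lies wholly within a lower-case stretch matches both genes.

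The part of an Igkv gene that reaches the antigen-binding loop at the joining site lies at its 3′ end. The ends of the 12 genes with the highest mean usage are given below from the same source, to show what tells the leading genes apart. Each has 35 bases, with the last in-frame cysteine codon in capitals.
Igkv1-110: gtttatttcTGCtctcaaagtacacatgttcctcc
Igkv1-117: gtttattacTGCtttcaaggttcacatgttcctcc
Igkv8-30: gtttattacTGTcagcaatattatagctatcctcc
Igkv1-135: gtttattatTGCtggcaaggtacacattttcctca
Igkv6-23: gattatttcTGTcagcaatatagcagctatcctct
Igkv6-15: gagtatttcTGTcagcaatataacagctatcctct
Igkv14-111: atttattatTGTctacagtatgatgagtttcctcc
Igkv19-93: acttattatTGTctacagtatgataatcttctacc
Igkv14-100: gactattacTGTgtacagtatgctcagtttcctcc
Igkv10-96: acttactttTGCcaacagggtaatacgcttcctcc
Igkv8-24: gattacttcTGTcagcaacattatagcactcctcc
Igkv5-48: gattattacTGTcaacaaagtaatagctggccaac
All 12 ends were distinct, and the codon in capitals was TGC in 4 and TGT in 8. Between the 66 pairs of ends the number of differing bases had a median of 15, with a lowest value of 2, for Igkv6-23 and Igkv6-15, and a highest of 18. The ends of Igkv1-110 and Igkv1-117 differed at 4 bases.

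Sequence sharing was measured for the whole set. All 92 genes had a GENCODE M21 transcript and lie on chromosome 6. In a median gene, 94.9% of the 75-base stretches of the transcript occurred in no other of the 160 Igkv genes and pseudogenes of the annotation. The lowest share was 40.5%, for Igkv6-20, and 34 of the 92 genes had only unique stretches. For Igkv1-110 the share was 68.8% and for Igkv1-117 69.1%. Neither read length nor the treatment of reads that match several genes is stated in the sources used here. Values of single genes within a family are less certain than those of the family sum. Somatic mutation can further separate a rearranged transcript from its germline gene.

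The libraries held 15263666 to 32003205 counts in Shp2 KO and 11678385 to 26545605 in WT. Counts of mitochondrial genes made up 18.1% to 33.2% in Shp2 KO libraries and 17.3% to 22.4% in WT libraries, and the ribosomal RNA gene Rn18s took 7.54% in Shp2 KO replicate 3 against at most 0.122% in every other library. Ptpn11, the gene of Shp2, had 70.0, 79.5 and 86.2 CPM in Shp2 KO libraries, against 75.3, 95.5, 80.7 and 82.9 CPM in WT libraries, where CPM is the depth-scaled count with TMM factors. These ranges overlap, with a log2 fold change of -0.09 ± 0.18 (SE) in cells of many types. Markers of hepatocytes, which the preparation is meant to lack, summed to 17024 to 37764 CPM in Shp2 KO and 17963 to 53021 CPM in WT libraries.

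Igkv transcripts made up a smaller part of the RNA in every Shp2 KO library than in any WT library. The 92 genes together had 202, 148 and 83.6 CPM in Shp2 KO libraries, against 589, 311, 245 and 417 CPM in WT libraries. The mean was 144 ± 59.4 CPM (SD, n = 3) in Shp2 KO and 390 ± 150 CPM (SD, n = 4) in WT, so the Shp2 KO mean was 0.370 of the WT mean. WT replicate 1 was the highest library and Shp2 KO replicate 3 the lowest, and the groups did not overlap.

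As unscaled counts, the Igkv sum was 6677, 2495 and 1353 in Shp2 KO libraries and 11061, 6004, 2945 and 9917 in WT libraries. This was 0.0209%, 0.0129% and 0.00886% of all counts in Shp2 KO, against 0.0661%, 0.0313%, 0.0252% and 0.0374% in WT. The difference of the means was -0.0258 percentage points, and -0.0171 without WT replicate 1. Without mitochondrial genes and Rn18s in the total, the part was 0.0119% to 0.0264% in Shp2 KO and 0.0324% to 0.0819% in WT, again with no overlap. Without Igkv1-110 and Igkv1-117 the sum was 157, 99.7 and 68.9 CPM in Shp2 KO libraries and 380, 214, 192 and 281 CPM in WT libraries. The separation of the groups therefore did not rest on the leading pair. No p-value is given for these sums, because the genes were chosen with results of these data known.

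**Figure D1:**
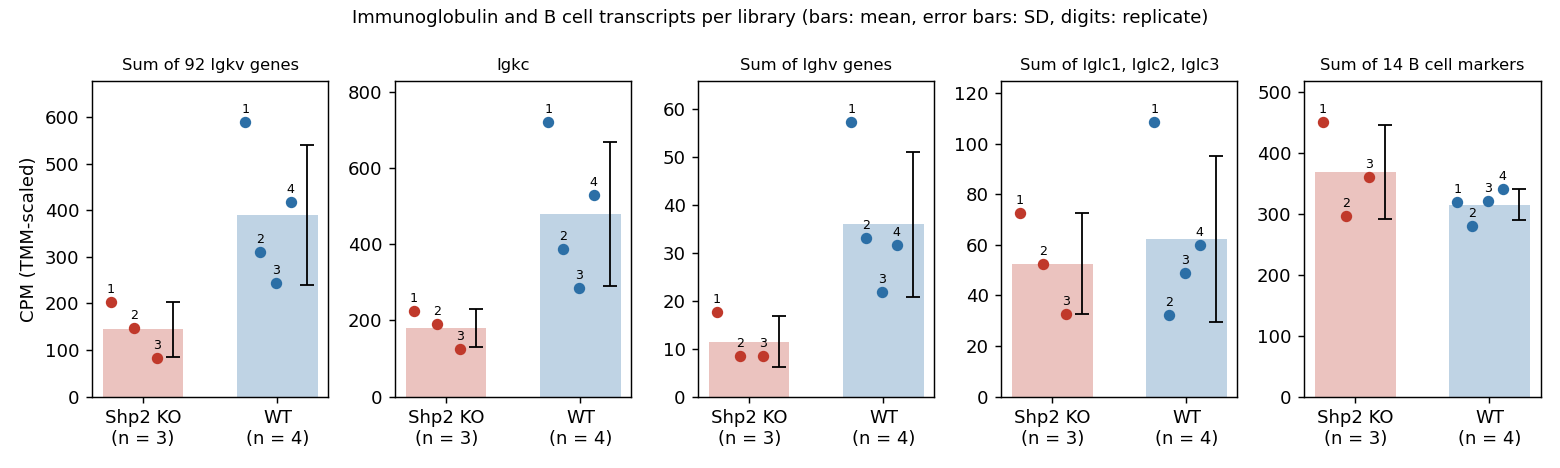
Level per library in CPM (y axis, each panel with its own scale from 0) of the 92 Igkv genes together, Igkc, the Ighv genes together, the lambda constant genes Iglc1 to Iglc3 together and 14 B cell markers together. Points are libraries with their replicate number, bars are group means and error bars are SD for Shp2 KO (n = 3) and WT (n = 4); the groups are apart for Igkv, Igkc and Ighv and overlap for the lambda constant genes and the B cell markers.

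Usage, the share of a library's Igkv counts that a gene took, was led by Igkv1-110 in all 7 libraries. Its share was 14.03%, 24.3% and 9.31% in Shp2 KO libraries, against 23.5%, 24.7%, 14.2% and 19.0% in WT libraries. The exact 95% binomial interval was widest in Shp2 KO replicate 2, at 22.7% to 26.1%, and narrowest in WT replicate 4, at 18.2% to 19.8%, and covers counting error only. The groups overlapped, with the lowest share in a Shp2 KO library and the highest in a WT library. The difference of the means, -4.46 percentage points, was -1.17 without Shp2 KO replicate 3 and -8.68 without Shp2 KO replicate 2.

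Igkv1-117 was the second gene by mean usage. It took 8.33%, 8.14% and 8.28% in Shp2 KO libraries, which lay close together, against 11.9%, 6.58%, 7.13% and 13.5% in WT libraries, on either side of them. The pair together held 22.4%, 32.5% and 17.6% of Igkv counts in Shp2 KO libraries and 35.5%, 31.3%, 21.3% and 32.5% in WT libraries. Usage is not corrected for length, but the coding sequences are of similar length, 338 to 370 bases in the 90 of 92 genes whose annotated coding sequence starts at ATG.

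Below the leading pair, usage was spread over many genes. The 12 most used genes held 47.8% to 53.7% of Igkv counts in Shp2 KO libraries and 51.2% to 64.2% in WT libraries. Of the 92 genes, 30 had a mean share of at least 1% and 46 a mean share under 0.5%. Igkv8-30 ranked behind the pair, with 2.95%, 3.77% and 3.25% in Shp2 KO libraries and 6.86%, 1.32%, 4.41% and 2.63% in WT libraries. Igkv1-135, of the same family as the pair, took 3.50%, 3.37% and 5.54% in Shp2 KO libraries and 1.35%, 1.95%, 4.18% and 3.15% in WT libraries. Both overlapped between the groups, and for Igkv8-30 the WT libraries held both the highest and the lowest share.

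**Figure D2:**
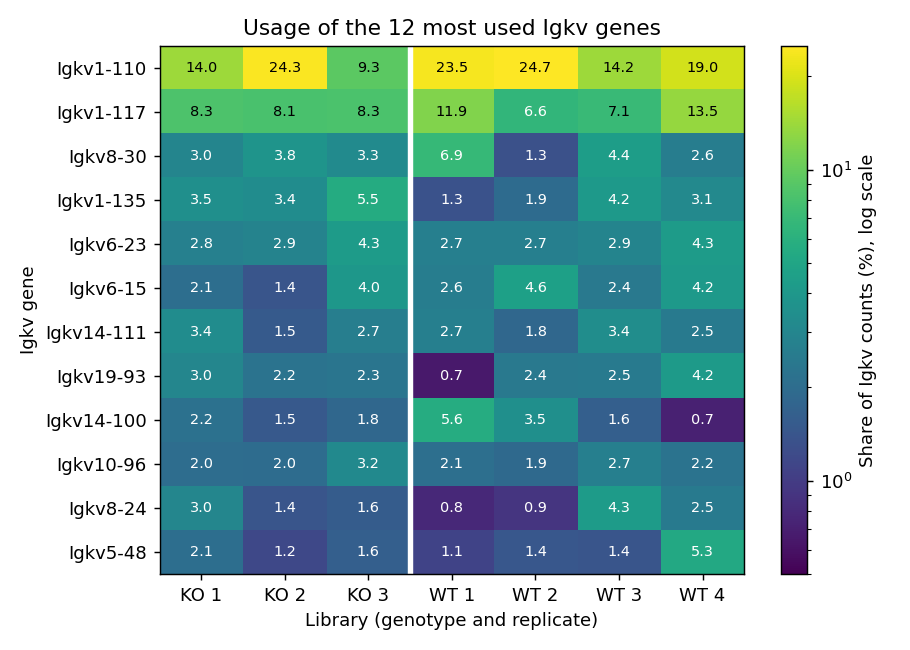
Share of Igkv counts in percent (colour, log scale, with the value in each cell) of the 12 most used Igkv genes (rows) in each library (columns, Shp2 KO left of WT). Igkv1-110 is the top row and the leading gene in every library, between 9.31% and 24.7%, while Igkv14-100 in WT replicate 1, at 5.60%, and Igkv5-48 in WT replicate 4, at 5.29%, stand out from the rest of their row.

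Some Igkv genes were prominent in a single library. Among the 43 genes with at least 200 counts in all, 9 reached a share at least 3 times their median over the 7 libraries. Igkv8-19 took 4.33% in Shp2 KO replicate 1 against a median of 0.616%, and Igkv17-121 took 3.61% in the same library against a median of 0.983%. Igkv6-25 took 2.73% in Shp2 KO replicate 3 against a median of 0.533%. In both genotypes such genes occurred. Igkv8-19 and Igkv6-25 were high in only 1 of the Shp2 KO libraries. Igkv17-121 was highest in 1 of them, but its share in each other Shp2 KO library was also above that of any WT library.

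In WT libraries the same pattern was seen with other genes. Igkv14-100 took 5.60% and Igkv8-21 5.19% in WT replicate 1, with medians of 1.85% and 1.16%. Igkv3-7 took 1.60% in WT replicate 2, while Igkv3-4 took 4.65% and Igkv4-53 2.00% in WT replicate 3. Igkv5-48 took 5.29% in WT replicate 4, against 1.10% to 1.45% in the other WT libraries. Except for Igkv3-7 and Igkv3-4, these genes belong to different families, and no library other than WT replicate 1, WT replicate 3 and Shp2 KO replicate 1 held more than 1 of the 9.

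Usage shares separated the genotypes for 7 of the 92 genes. A single gene, Igkv4-55, had a lower share in every Shp2 KO library than in any WT library, 1.09% of the 92 genes. Its shares were 0.719%, 0.441% and 0.739% in Shp2 KO libraries and 0.814%, 0.7495%, 0.781% and 0.887% in WT libraries. A higher share in every Shp2 KO library was found for 6 genes, or 6.52%. They were Igkv17-121, Igkv14-126, Igkv13-84, Igkv1-133, Igkv4-77 and Igkv4-73, of which Igkv4-77 and Igkv4-73 rested on 25 and 22 counts over all libraries. Igkv14-126 had 1.18%, 0.681% and 0.813% in Shp2 KO libraries and 0.443%, 0.416%, 0.611% and 0.585% in WT libraries. These 7 genes were picked out after their shares were seen. A share of Igkv counts has no counterpart in other genes. On the CPM scale, every Shp2 KO library lay below every WT library for 2.81% of all genes with at least 10 counts. It lay above for 3.42%. The 1.09% and 6.52% are of the order of these shares, so the 7 genes are not read as a change of usage with genotype.

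The 92 genes fall into 18 families, and family sums depend less on how reads between near-identical genes were assigned. The Igkv1 family, with 8 genes, was the largest by usage and took 27.7%, 37.4% and 24.5% in Shp2 KO libraries and 37.5%, 34.6%, 26.7% and 36.3% in WT libraries. The Igkv8 family of 9 genes ranged from 9.83% to 16.5% in Shp2 KO and from 4.70% to 14.4% in WT. The Igkv4 family, the largest by number with 27 genes, took 9.97% to 13.97% in Shp2 KO and 8.16% to 13.1% in WT. Family shares of the 2 genotypes overlapped in all 18 families. On the CPM scale, 10 of the 18 families were lower in every Shp2 KO library than in any WT library and none was higher in every one. Among all single genes with at least 10 counts, 2.81% were lower and 3.42% higher in this way. The families are parts of the same Igkv total, so their count is not a result separate from that total.

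The shares of the stretches of the locus overlapped as well. Genes numbered below 50, nearest the joining genes, are 34 of the 92 and took 32.6% to 40.4% of Igkv counts in Shp2 KO and 32.2% to 40.2% in WT. The 37 genes numbered 50 or more but below 100 took 18.1% to 22.8% in Shp2 KO and 13.2% to 20.2% in WT. The 21 genes numbered 100 and above, which include the leading pair, took 36.9% to 48.9% in Shp2 KO and 39.5% to 51.5% in WT.

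Most Igkv genes were seen in every library despite the lower Igkv total in Shp2 KO. At least 1 count was found for 91, 85 and 85 of the 92 genes in Shp2 KO libraries and for 87, 88, 86 and 89 in WT libraries, and 74 genes had a count in all 7. A gene at 0 counts may still hold up to 3, which is 0.0449% to 0.222% of Igkv counts in Shp2 KO libraries and 0.0271% to 0.102% in WT libraries. Depth therefore limits what can be said of rarely used genes, most of all in Shp2 KO replicate 3.

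The spread of usage is summarised by the effective number of genes, the number of equally used genes that would give the same Shannon entropy. It was 42.3, 32.1 and 48.3 in Shp2 KO libraries, against 26.8, 32.5, 40.6 and 30.5 in WT libraries. The mean was 40.9 ± 8.17 (SD, n = 3) in Shp2 KO and 32.6 ± 5.83 (SD, n = 4) in WT. The groups overlapped, since Shp2 KO replicate 2 lay below 2 of the WT libraries. The difference of the means, 8.30, was 4.60 without Shp2 KO replicate 3 and 12.7 without Shp2 KO replicate 2.

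Measures that rest on the most used genes also overlapped between the groups. The 10 most used genes of each library held 49.2%, 56.0% and 45.5% of its Igkv counts in Shp2 KO and 65.3%, 55.7%, 50.4% and 61.3% in WT. To reach 50% of the counts took 11, 8 and 13 genes in Shp2 KO libraries and 5, 8, 10 and 6 genes in WT libraries. The inverse Simpson index, which weights the leading genes more, was 23.7, 12.9 and 30.9 in Shp2 KO and 11.6, 12.8, 23.5 and 14.4 in WT. Shp2 KO replicate 3 had the most even usage by all 3 measures and WT replicate 1 the least even.

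When the depth was made equal, by the number of genes expected in 1353 Igkv counts drawn from each library, the groups separated. The expected number was 84.1, 79.4 and 85.0 in Shp2 KO libraries and 76.0, 78.9, 78.8 and 77.1 in WT libraries. Without Igkv1-110 and Igkv1-117, an alternative added after seeing the data, the effective number was 51.8, 51.1 and 54.2 in Shp2 KO and 41.9, 50.8, 48.2 and 44.9 in WT, also apart. The smallest gaps were narrow, 79.4 against 78.9 genes and 51.1 against 50.8. The effective number of families, 10.2, 8.92 and 10.4 in Shp2 KO and 7.95, 9.05, 10.5 and 8.95 in WT, overlapped.

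**Figure D3:**
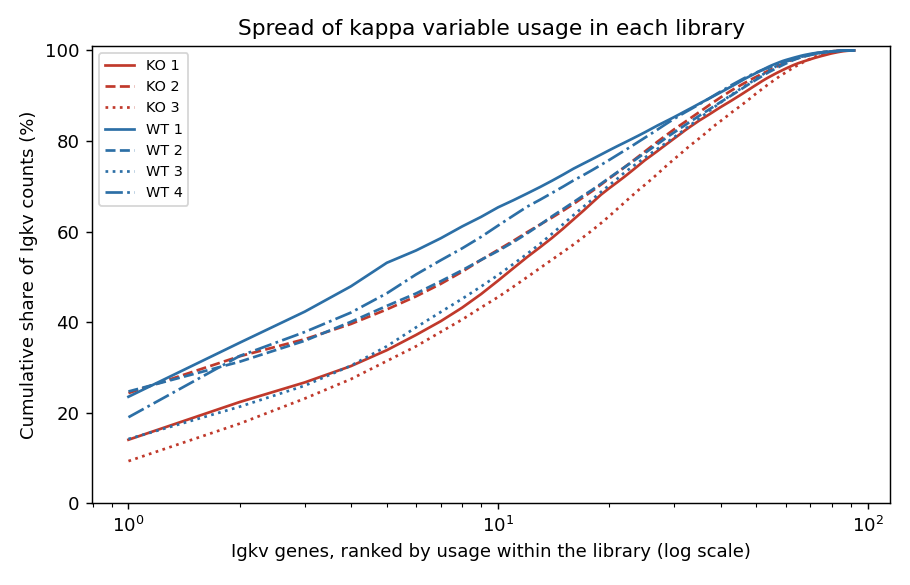
Cumulative share of Igkv counts in percent (y axis) over the Igkv genes ranked by usage within each library (x axis, log scale), with a line per library, red for Shp2 KO and blue for WT. WT replicates 1 and 4 climb fastest and reach 65.3% and 61.3% at 10 genes, Shp2 KO replicate 3 climbs slowest with 45.5%, and Shp2 KO replicate 2 runs beside WT replicate 2.

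Usage differed over similar ranges between libraries of the same genotype and between genotypes. The Bray-Curtis dissimilarity of the shares, which is 0 for identical usage and 1 for none in common, was 0.229 to 0.256 among the 3 Shp2 KO pairs and 0.253 to 0.326 among the 6 WT pairs. Over the 12 pairs of a Shp2 KO and a WT library it was 0.187 to 0.333. The pairs share libraries and are not independent. The level of single Igkv genes also varied more at the median than that of all genes tested. The median biological coefficient of variation was 45.9% (27.9% to 89.3%) among the Igkv genes tested and 26.5% among all genes tested. This comparison was not matched for level.

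The genotype difference of each Igkv gene was estimated with edgeR's quasi-likelihood test over the whole table. With a filter that does not look at the groups, at least 10 counts summed, all 92 genes were fitted and 81 had a log2 fold change below 0, against 47.7% of the 16706 genes fitted. The median log2 fold change, Shp2 KO over WT, was -1.13 over the 92 genes and 0.02 over all genes fitted. An unadjusted p under 0.05 was reached by 43 of the 92 genes, all lower in Shp2 KO, where 2.41% of all genes were lower and 2.6% higher at that level. Every Shp2 KO library lay below every WT library in CPM for 22 of the 92, against 2.81% of all genes, and above for 0 of the 92, against 3.42%.

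With the filter of the main test, which keeps genes with enough counts in several libraries, 14077 genes and 68 of the 92 Igkv genes were tested. No gene passed an adjusted p of 0.05 in edgeR (0.0% of genes), and the smallest adjusted p of an Igkv gene was 0.367, for Igkv6-15. At an unadjusted p under 0.05, 37 of the 68 were lower in Shp2 KO, against 2.35% of all genes tested, and 0 were higher, against 2.27%. The median log2 fold change of the 68 was -1.34 (quartiles -1.84 and -0.92), against 0.01 over all genes tested, and 65 were below 0, against 48.3%. The 24 genes that were not tested had too few counts, and since a gene can pass this filter through the group where it is higher, these counts are a description only. The CPM values of the groups did not overlap for 22 of the 68, all lower in Shp2 KO, against 3.05% of genes tested that were lower and 3.03% that were higher in every Shp2 KO library. Leaving out Shp2 KO replicate 3 left 27 genes lower at an unadjusted p under 0.05, and leaving out Shp2 KO replicate 3 and WT replicate 2 together left 26.

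DESeq2's Wald test, the alternative, called 66 genes at an adjusted p under 0.05, and 9 of them were Igkv genes. All 9 were lower in Shp2 KO, where 0.398% of the genes with an adjusted p were called lower and 0.0711% higher. They were Igkv6-15, Igkv4-68, Igkv4-79, Igkv10-96, Igkv4-53, Igkv6-23, Igkv12-46, Igkv15-103 and Igkv4-55, of which Igkv12-46, Igkv15-103 and Igkv4-55 are named for this alternative result. The limma voom fit called 0 genes, and with library quality weights it called 9 genes and 0 Igkv genes, so the call of single Igkv genes depended on the tool.

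**Figure D4:**
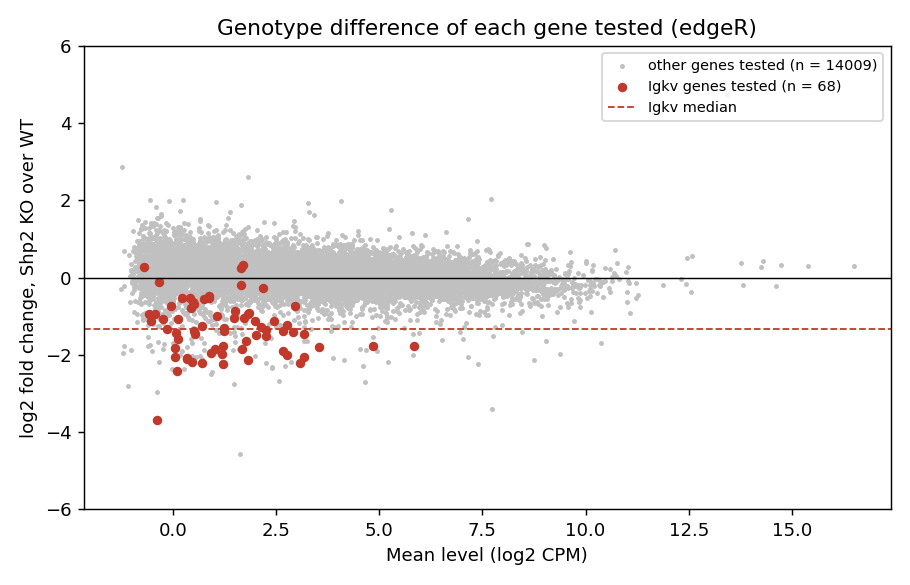
log2 fold change of Shp2 KO over WT (y axis) against mean level in log2 CPM (x axis) for each gene tested with edgeR, with 68 Igkv genes in red and all other genes tested in grey. The red points lie mostly below the line at 0, around the dashed line at their median of -1.34, at low and high levels alike; none passed an adjusted p of 0.05.

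Igkv6-15 had the smallest p-value of the Igkv genes. Its level was 4.15, 2.07 and 3.34 CPM in Shp2 KO libraries, against 15.4, 14.4, 5.98 and 17.4 CPM in WT libraries, with no overlap. The log2 fold change was -2.05 ± 0.40 (SE), with an adjusted p of 0.367 in edgeR's quasi-likelihood test and 0.000231 in DESeq2. Its near relative Igkv6-23 had 5.57, 4.26 and 3.59 CPM in Shp2 KO libraries and 15.9, 8.38, 7.14 and 17.9 CPM in WT libraries. The groups were again apart, with a log2 fold change of -1.46 ± 0.37. In both genes WT replicate 3 was the lowest WT library.

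The other genes with the smallest p-values lay at lower levels. Igkv4-68 had 0.697, 1.30 and 0.495 CPM in Shp2 KO libraries and 2.98, 3.36, 2.58 and 4.04 CPM in WT libraries (log2 fold change -1.97 ± 0.39). Igkv4-79 had 0.333, 0.532 and 0.371 CPM in Shp2 KO libraries and 2.77, 1.60, 1.25 and 1.35 CPM in WT libraries (-2.09 ± 0.44). For both, the 3 Shp2 KO values were below all WT values, but they rested on 6 to 23 counts in each Shp2 KO library.

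Igkv10-96 and Igkv4-53 completed the 6 genes. Igkv10-96 had 4.09, 2.96 and 2.66 CPM in Shp2 KO libraries and 12.3, 5.90, 6.65 and 9.21 CPM in WT libraries (log2 fold change -1.39 ± 0.33). Igkv4-53 had 1.03, 0.473 and 0.804 CPM in Shp2 KO libraries and 2.18, 2.43, 4.90 and 2.10 CPM in WT libraries (-1.86 ± 0.44). Neither overlapped between the groups, and the adjusted p-values of edgeR for the 6 genes were 0.367 to 0.625.

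The leading pair showed differences of similar size with more spread. Igkv1-110 had 28.4, 35.9 and 7.79 CPM in Shp2 KO libraries, against 138, 76.7, 34.7 and 79.2 CPM in WT libraries. Its log2 fold change was -1.77 ± 0.54, and the groups overlapped, because Shp2 KO replicate 2 lay above WT replicate 3. Igkv1-117 had 16.8, 12.01 and 6.92 CPM in Shp2 KO libraries and 70.2, 20.4, 17.4 and 56.4 CPM in WT libraries (-1.78 ± 0.52). Its groups were apart by a narrow gap, 16.8 against 17.4 CPM.

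The remaining genes among the 12 most used were all lower in Shp2 KO on average, with overlapping groups. Igkv8-30 had a log2 fold change of -1.79 ± 0.67, Igkv14-100 of -2.21 ± 0.79 and Igkv5-48 of -1.89 ± 0.67, and in each a single WT library stood well above the other 3. Igkv14-100, for example, had 4.36, 2.19 and 1.55 CPM in Shp2 KO libraries and 32.9, 10.9, 3.99 and 2.98 CPM in WT libraries. Igkv14-111 (-1.40 ± 0.48), Igkv19-93 (-1.22 ± 0.54), Igkv8-24 (-1.13 ± 0.59) and Igkv1-135 (-0.74 ± 0.31) showed smaller differences.

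Only 3 of the 68 tested Igkv genes had a log2 fold change above 0, and in 2 of them Shp2 KO replicate 1 alone was high. Igkv8-19 had 8.75, 0.887 and 0.495 CPM in Shp2 KO libraries and 3.14, 1.91, 1.83 and 4.25 CPM in WT libraries (0.32 ± 0.78). Igkv17-121 had 7.30, 1.54 and 0.865 CPM in Shp2 KO libraries and 3.67, 3.05, 1.99 and 2.40 CPM in WT libraries (0.25 ± 0.60). In both, Shp2 KO replicate 1 was the highest library of all and the other Shp2 KO libraries were below every WT library. Without Shp2 KO replicate 1 the log2 fold changes were -2.01 for Igkv8-19 and -1.21 for Igkv17-121. The remaining gene, Igkv4-58, had 0.878, 0.177 and 0.556 CPM in Shp2 KO libraries and 0.213, 0.104, 1.08 and 0.589 CPM in WT libraries (0.26 ± 0.73), with overlap, and its log2 fold change was -0.37 without Shp2 KO replicate 1.

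Genes whose sequence is unique had a median difference similar to that of genes that share stretches with relatives. Of the 68 genes tested, 22 had only unique 75-base stretches; their median log2 fold change was -1.25, and 12 of them were lower at an unadjusted p under 0.05. The other 46 had a median of -1.41, and 25 were lower at that level, where 2.35% of all genes tested were lower. Every Shp2 KO library lay below every WT library for 4 of the 22 and for 18 of the 46, against 3.05% of all genes tested. This part was smaller among the unique genes. A gene can pass the filter of this test through the group where it is higher, so these counts are a description only.

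Close to the choice of members, the genes just inside the minimum of 10 counts were Igkv4-71 with 11 and Igkv5-37 and Igkv4-78 with 12 each, and those just outside were Igkv2-107 and Igkv12-40 with 9 each. The 10 Igkv rows left out held 0.133% of all Igkv counts.

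The rest of the kappa chain was compared in the same fit. Igkc, the constant part to which every Igkv transcript is spliced, had 224, 191 and 124 CPM in Shp2 KO libraries, against 720, 387, 284 and 528 CPM in WT libraries. The groups were apart, with a log2 fold change of -1.42 ± 0.36, close to the median of the Igkv genes, with an adjusted p of 0.669 in edgeR and 0.0139 in DESeq2. Igkv counts per Igkc count were 0.903, 0.774 and 0.672 in Shp2 KO libraries and 0.818, 0.802, 0.861 and 0.790 in WT libraries, with overlap. The joining genes Igkj1 to Igkj5, at 0.104 to 2.49 CPM in every library, all had log2 fold changes above 0, from 0.03 ± 0.51 to 0.35 ± 0.59, and overlapped.

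Lambda light chain transcripts, which serve the B cells that do not use kappa, did not separate in the same way. The constant genes Iglc1, Iglc2 and Iglc3 together had 72.7, 52.3 and 32.8 CPM in Shp2 KO libraries and 109, 32.2, 49.0 and 59.8 CPM in WT libraries, with overlap. Their log2 fold changes were -0.68 ± 0.44, -0.05 ± 0.45 and -0.15 ± 0.33. All 5 lambda genes tested had a log2 fold change below 0, with a median of -0.68, against 48.3% of all genes tested below 0. At an unadjusted p under 0.05, 2 were lower and 0 higher, against 2.35% and 2.27% of all genes tested. The 2 were the variable genes Iglv1 (-1.14 ± 0.47) and Iglv2 (-2.30 ± 0.90). Iglv2 reached 29.0 CPM in WT replicate 1 and at most 6.85 CPM in any other library.

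The number of Igkc counts per count of the 3 lambda constant genes was 3.08, 3.65 and 3.79 in Shp2 KO libraries, against 6.63, 12.01, 5.79 and 8.82 in WT libraries. The groups were apart, and the mean was 3.51 ± 0.376 (SD, n = 3) in Shp2 KO and 8.31 ± 2.78 (SD, n = 4) in WT. This ratio is not corrected for gene length, and it was chosen after values were seen, so it has no test.

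Of the heavy chain constant genes and Jchain, 7 were tested. At an unadjusted p under 0.05, 3 were lower and 0 higher, against 2.35% and 2.27% of all genes tested. The 3 were Igha, Ighg2b and Ighg2c, all of switched antibody classes. Igha, of IgA, had 18.4, 21.5 and 22.4 CPM in Shp2 KO libraries and 140, 103, 30.7 and 60.1 CPM in WT libraries (log2 fold change -2.01 ± 0.44). Ighg2b, of an IgG class, had 12.1, 14.02 and 10.3 CPM in Shp2 KO libraries and 60.8, 50.3, 22.4 and 88.2 CPM in WT libraries (-2.19 ± 0.40). Ighg2c was at -2.09 ± 0.44. In these 3 genes the groups were apart, against 3.05% of all genes tested that were lower in every Shp2 KO library. For them edgeR's adjusted p was 0.359 to 0.419. DESeq2 called each, where it called 0.398% of the genes with an adjusted p lower. Ighg3, of another switched class, had 1.76, 0.947 and 0.742 CPM in Shp2 KO libraries and 3.99, 3.05, 0.498 and 2.31 CPM in WT libraries (-1.08 ± 0.58), with overlap. Ighe, with at most 2 counts in any library, was not tested.

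Ighm and Ighd, which naive B cells express, had log2 fold changes of -0.18 ± 0.21 and -0.06 ± 0.23, with overlapping groups. Jchain, which links secreted IgM and IgA, had 160, 170 and 36.8 CPM in Shp2 KO libraries and 575, 148, 189 and 277 CPM in WT libraries (-1.28 ± 0.58), with overlap. The heavy variable (Ighv) genes with at least 10 counts, 38 in all, summed to 17.6, 8.52 and 8.41 CPM in Shp2 KO libraries, against 57.3, 33.2, 21.8 and 31.6 CPM in WT libraries, apart like the Igkv genes. Igkv counts per Ighv count overlapped, with 9.95 to 17.3 in Shp2 KO and 9.37 to 13.2 in WT.

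**Figure D5:**
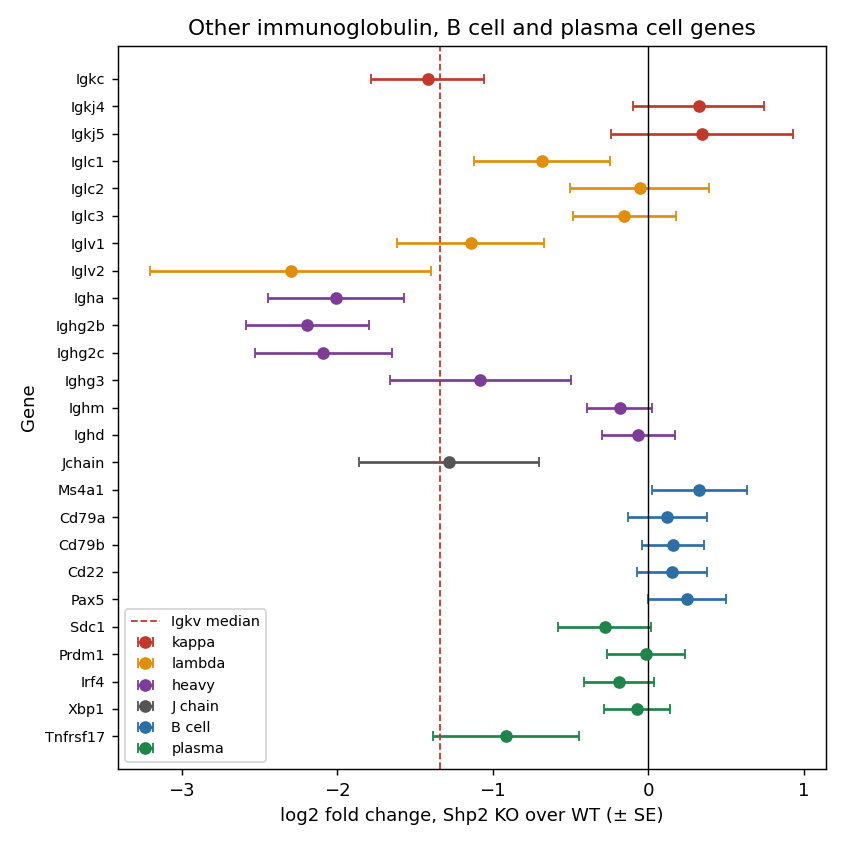
log2 fold change of Shp2 KO over WT with its SE (x axis) of other immunoglobulin, B cell and plasma cell genes (rows), coloured by group, with the Igkv median as a dashed line. Igkc, Jchain, Iglv1, Iglv2, Igha, Ighg2b, Ighg2c and Ighg3 lie near or beyond the Igkv median of -1.34. Ighm, Ighd and most B cell and plasma cell genes lie near 0. None passed an adjusted p of 0.05 in edgeR.

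Genes that assemble and transcribe light chains were measured with the same test. Of the recombination list, which holds the recombinase genes Rag1 and Rag2 and DNA repair genes such as Prkdc and Dclre1c, 7 of 9 were tested and 0 had an unadjusted p under 0.05 in either direction. Rag1 had 1 to 8 counts and Rag2 at most 2 in each library. Of the transcription factors that act on immunoglobulin promoters and enhancers, among them Pou2f2, Pou2af1, Pax5, Irf4 and Spib, 0 of 10 tested had an unadjusted p under 0.05, and their median log2 fold change was 0.05. Of the surrogate light chain genes of B cell precursors, 1 of 3 was tested, Vpreb3 at 0.46 ± 0.37.

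In the somatic hypermutation list, the mismatch repair gene Msh6 (-0.71 ± 0.25) was lower at an unadjusted p under 0.05, and the uracil glycosylase gene Ung (0.21 ± 0.39) and the polymerase gene Polh (-0.10 ± 0.23) did not reach it.

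Markers of the cells that could carry Igkv RNA did not separate the groups as Igkv did. The 14 B cell markers summed to 451, 297 and 361 CPM in Shp2 KO libraries and 319, 281, 321 and 341 CPM in WT libraries, with overlap. Of the 14, 12 had a log2 fold change above 0 and the median was 0.16. At an unadjusted p under 0.05, 1 was higher and 0 were lower, against 2.27% and 2.35% of all genes tested. The level of Igkv per unit of B cell marker CPM was 0.448, 0.498 and 0.232 in Shp2 KO libraries and 1.84, 1.11, 0.763 and 1.22 in WT libraries, which did not overlap.

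The plasma cell list, which also holds Jchain, summed to 529, 551 and 409 CPM in Shp2 KO libraries and 946, 494, 548 and 667 CPM in WT libraries. The groups overlapped, and WT replicate 1, the library with the most Igkv, was the highest. Of 13 markers tested, 10 had a log2 fold change below 0, the median was -0.19, and 0 had an unadjusted p under 0.05 in either direction. Tnfrsf17, a survival receptor of plasma cells, had a log2 fold change of -0.91 ± 0.47 at no more than 0.883 CPM in any library, and Mzb1 was near 0, at 0.0518 to 0.433 CPM. Several genes of this list, such as Xbp1, Ssr4 and Edem2, are also expressed by other secretory cells.

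Markers of some other cell types differed at an unadjusted p under 0.05, where 2.35% of all genes tested were lower and 2.27% higher. Of 10 Kupffer cell markers, 5 were lower in Shp2 KO at that level (Clec4f, Vsig4, Timd4, Cd163 and Folr2). DESeq2 called 3 of the 10 lower at an adjusted p under 0.05, Clec4f, Timd4 and Cd163. Of all genes with an adjusted p, it called 0.398% lower and 0.0711% higher. It called 0 of the T and NK cell, neutrophil or plasmacytoid dendritic cell markers. The median log2 fold change of the Kupffer cell markers was -0.54. Their list summed to 2401 to 4126 CPM in Shp2 KO and 3982 to 8249 CPM in WT libraries. Of the 9 T and NK cell markers tested, 8 were below 0, with Klrb1c at an unadjusted p under 0.05. Neutrophil markers had a median of 1.11, with Retnlg and Csf3r higher at an unadjusted p under 0.05, and among plasmacytoid dendritic cell markers Klk1 was lower. The lists of sinusoidal endothelium, hepatocytes and erythroid cells held 0 genes at that level. The part of these differences in the lower Igkv level was not tested.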

How the data were processed

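Total RNA of 7 samples of liver nonparenchymal cells was sequenced. Per the labels' protocols, libraries were prepared with Illumina's TruSeq RNA v2 reagents, a kit that does not mark strand. The authors deposited raw counts per gene in a single table, and no other per-sample column was left out (0). FastQC 0.11.9, STAR 2.7.10a, SAMtools 1.9, featureCounts 2.0.3 and GRCm39 are named in the submitters' processing notes; annotation, strand setting, read length and how reads matching several genes were handled are stated nowhere in the sources used here. Without strand, reads of overlapping genes on opposite strands cannot be told apart. Chi-square tests of counts found no library to be a copy of another.

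The main test was edgeR 4.0.16 (R 4.3.3) with TMM factors, filterByExpr (minimum count 10, minimum total 15), robust quasi-likelihood and Benjamini-Hochberg adjustment over all genes tested, threshold 0.05, with genotype as the only term. Standard errors come from the fold change and test statistic. CPM values use TMM-scaled library sizes. Alternatives were DESeq2 1.42.0, limma 3.58.1 voom with and without quality weights, other scalings, other filters and leaving out libraries. Usage, diversity and family sums are shares of the Igkv counts and have no test. Intervals are exact binomial, and depth, 1353 to 11061 Igkv counts per library, sets their width. Sequences and their uniqueness come from GENCODE M21 (GRCm38); no coordinates are given because the counts use GRCm39, and promoters of Igkv genes were not analysed here. The edgeR script was tested on simulated data.

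The genes, lists and alternatives were chosen with earlier results of these data known. Genes named are the 12 most used, the leading gene of each library, those called, the 6 with the smallest p in each direction (only 3 were above 0), those at the minimum of 10 counts and, of each list, those with an unadjusted p under 0.05 and up to 3 with the highest level, of which some are not reported here. Other genes were named after their values were seen: those with a share in a single library of at least 3 times the median, those called by DESeq2 alone and members of a list given as examples.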

Additional observations from a re-analysis of the deposited data

Results flagged for a closer look

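In each of 111 quantities, the 4 WT libraries were checked for a highest or lowest value whose gap to its neighbour exceeded Dixon's 95% critical value when divided by the group's range, and 9 were found; chance flags about 1 group in 20. The 3 Shp2 KO libraries are too few for this check.

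Of the Igkv genes, Igkv5-48 reached 22.1 CPM and a usage share of 5.29% in WT replicate 4, against at most 6.49 CPM and 1.45% in the other WT libraries. Igkv6-23 took a share of 4.30% in WT replicate 4, against 2.698% to 2.92% in the others, and Igkv4-53 had 4.90 CPM in WT replicate 3, against 2.10 to 2.43 CPM.

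Among the related and marker genes, Igll1, a surrogate light chain gene, had 0.373 CPM in WT replicate 1, which is 7 counts. WT replicate 2 was the highest WT library in Vsig4 (1220 CPM), Timd4 (376 CPM) and Ptprb (2999.8 CPM), and the lowest in S100a9 (16.7 CPM, against 52.6 to 58.6 CPM). Its Igkv level, 311 CPM, lay within the range of the other WT libraries.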

How the results depend on the processing

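No paired analysis was possible because the groups share no replicate numbers in the labels. The 0 Igkv genes called by edgeR stayed at 0 under every scaling, filter and left-out library tried and in both limma fits, and were 9 with DESeq2. The number of all genes called, 0 in edgeR, was 66 with DESeq2, 9 with limma quality weights, 3 with library size only, 3 with no filter, and 2 without WT replicate 2 and Shp2 KO replicate 3 together. Igkv genes lower at an unadjusted p under 0.05 numbered 26 to 48 over all settings, and 27 (without Shp2 KO replicate 3) to 48 (without Shp2 KO replicate 1) when single libraries were left out; with no filter 1 was higher, Igkv4-71, with 11 counts, 9 of them in Shp2 KO replicate 1. The median log2 fold change was -1.01 with quality weights, and -1.70 to -1.11 with single libraries left out. Leaving out single libraries gave a difference of -0.0307 to -0.0171 percentage points in the Igkv part of all counts, 4.60 to 12.7 in the effective number of genes and -8.68 to -1.17 percentage points in the share of the most used gene. At equal depth the difference in expected genes was 5.14, a different quantity by construction. The sign turned for 3 genes: Igkv17-121 to -0.14 with voom and -1.21 without Shp2 KO replicate 1, Igkv8-19 to -0.46 and -2.01 in the same settings, and Igkv4-58 to -0.036 with quality weights, -0.07 without WT replicate 2, -0.37 without Shp2 KO replicate 1 and -0.030 without WT replicate 2 and Shp2 KO replicate 3 together; with single libraries left out, the values ran from -1.21 to 0.69, from -2.01 to 0.81 and from -0.37 to 0.84, and the cause was not tested. The promoter motif search could not be made with the sequence tables used here. Depth limits the rarely used genes: 46 of the 92 had a mean share under 0.5%.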
